A study of Caenorhabditis elegans with 12 samples.

Results

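Core autophagy genes and their regulator hlh-30 were followed in adult Caenorhabditis elegans on single-colour microarrays. The genes were 9 in number, of 19816 genes matched on the array, and were taken by name: hlh-30 (W02C12.3), unc-51 (Y60A3A.1), bec-1 (T19E7.3), atg-18 (F41E6.13), atg-7 (M7.5), lgg-1 (C32D5.9), lgg-2 (ZK593.6), sqst-1 (T12G3.1) and epg-5 (C56C10.12). They had 24 probes, and 8 of the 9 passed the filter for signal above background. The exception was epg-5, whose single probe was well above background on 4 of 12 arrays.

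Total RNA of whole adults was measured in 4 groups of 3 arrays: daf-2(e1370) worms grown at 15 °C and then held for 12 h at 25 °C, wild-type N2 worms kept at 15 °C, N2 worms moved from 15 °C to 25 °C for 3 h, and N2 worms moved for 12 h. The gene daf-2 encodes the insulin-like receptor, and e1370 is a temperature-sensitive allele of it. The only daf-2 group was the one at 25 °C, so the mutation was compared with N2 after 12 h and at that temperature only, and the labels give all worms as well-fed adults without an age in days. Each group holds 1 array from each of the replicate sets A, B and 1. The source names call sets A and 1 both replicate 1, so the p-values cover array-to-array spread, and this may be technical.

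Autophagy encloses cytoplasm and damaged components in a double membrane, the autophagosome, and delivers it to the lysosome. The kinase UNC-51 (the homolog of mammalian ULK1) starts the process, BEC-1 (Beclin 1) works in a lipid kinase complex that marks the new membrane, and ATG-18 (a WIPI protein) binds that lipid. ATG-7 is the enzyme that activates the ubiquitin-like proteins LGG-1 and LGG-2, homologs of yeast Atg8, for their coupling to the membrane. SQST-1 (p62) is a receptor that carries ubiquitin-marked cargo, and EPG-5 acts when the autophagosome matures. HLH-30, the worm homolog of TFEB, is a transcription factor for autophagy and lysosome genes, and is known to be needed for the long life of daf-2 mutants.

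The share of probes well above background was 55.6% to 61.4% in sets A and B, and 80.8% to 84.9% in set 1, which was scanned on another day. Yolk protein genes, markers of adult hermaphrodites, cleared background on every array (4 of 4 tested markers). Sperm markers differed between sets within a group: their mean log2 signal was −2.68 to −0.33 on the daf-2 arrays, and on set B of N2 it was 2.42 at 15 °C, 2.42 after 3 h and 1.94 after 12 h, against −1.70 to 0.70 on the other N2 arrays. In whole-worm RNA, fewer cells of a type and less RNA per cell cannot be told apart. A group's slide position never varied, which leaves position and group impossible to tell apart.

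Levels are log2 signals relative to the array's 75th percentile, and they are compared between groups within 1 probe only. In the comparison of daf-2 with N2 after 12 h at 25 °C, 3 of the 8 tested genes rose, 0 fell and 5 did not pass (limma, Benjamini-Hochberg adjustment over all 13487 genes, threshold 0.05). Over all genes 21.9% (2948 genes) were called, 14.4% as higher and 7.45% as lower; without slide A the count was 848 and without slide B it was 789. The genes that rose were sqst-1, unc-51 and hlh-30. The groups did not overlap for these and for lgg-2, all 4 higher in daf-2, and 21.8% of all genes were apart in that direction. The median log2 difference of the 8 genes was 0.41, beside −0.14 over all genes tested. With the slide as a term in the fit (the replicate block), 4 of the 8 were called higher and 1 lower. That fit called 37.4% of all genes (20.0% higher, 17.4% lower). The added calls were lgg-1 and atg-18. Within sets A, B and 1, array deviations of daf-2 and N2 after 12 h correlated with r of 0.389, −0.399 and 0.129. These groups were thus weakly paired at most, which limits the block's p-values for daf-2.

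**Figure D1:**
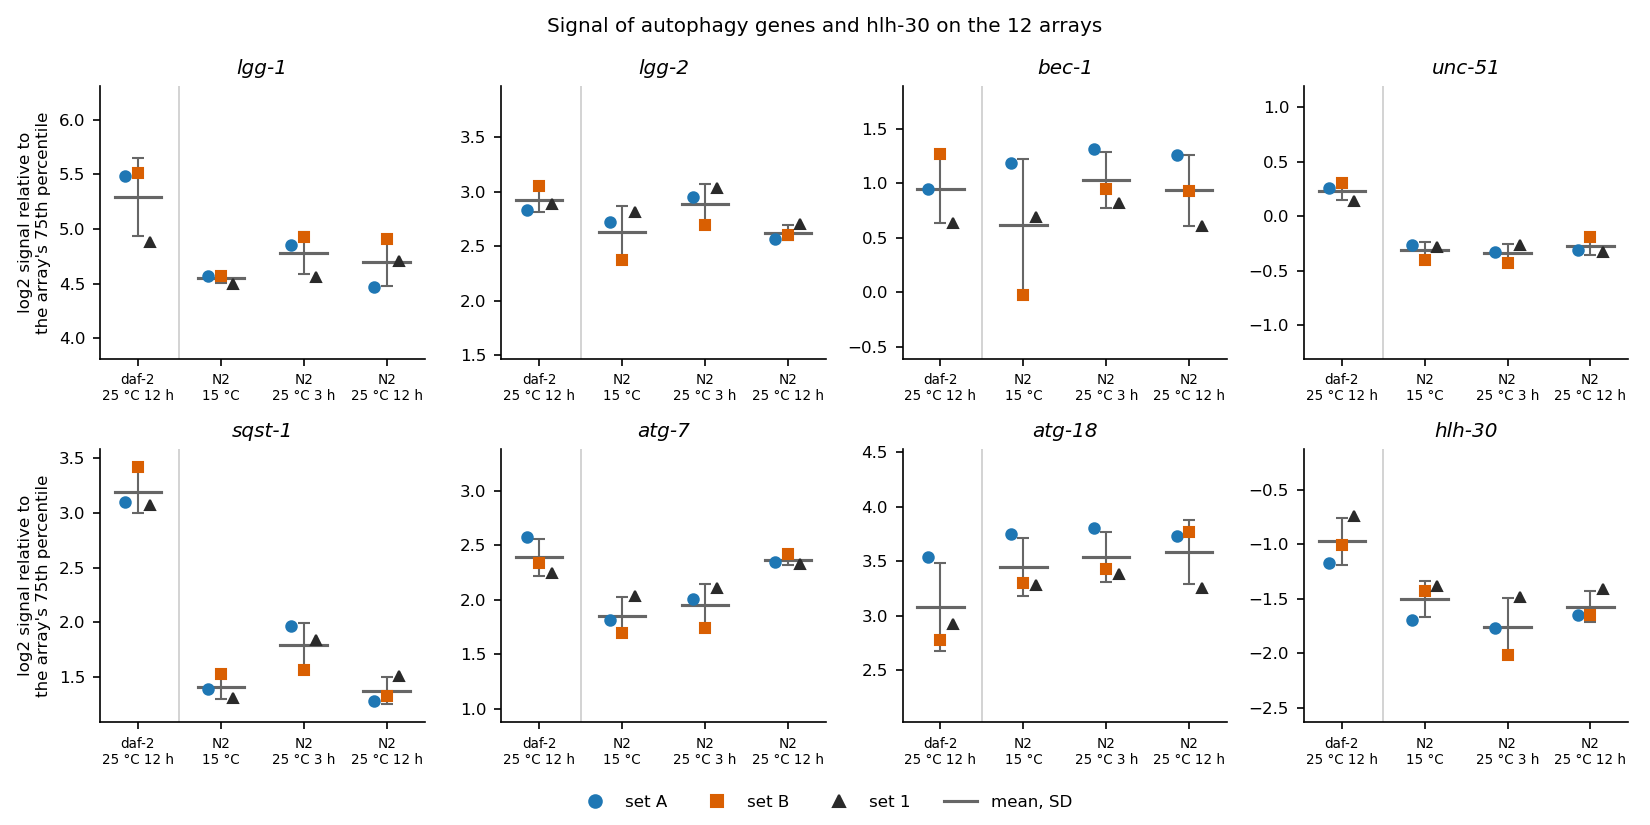
Log2 signal relative to the array's 75th percentile (vertical axis) of the 8 tested genes in each group, with 1 point per array, the replicate sets by symbol, and the mean and SD as lines. The sqst-1 points of daf-2 lie between 3.07 and 3.42, above all 9 N2 arrays, and those of unc-51 and hlh-30 also clear every N2 array.

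The regulator hlh-30 was higher in daf-2. Its probe, annotated to isoform g, read −1.17, −1.01 and −0.74 on the daf-2 arrays (sets A, B and 1). In N2 it read −1.69, −1.43 and −1.38 at 15 °C, −1.77, −2.01 and −1.48 after 3 h, and −1.65, −1.65 and −1.41 after 12 h. All 3 daf-2 arrays lay above all 9 N2 arrays, while the N2 groups overlapped one another. Of all genes, 23.7% were apart and higher in daf-2 against N2 after 3 h, and 25.3% against N2 at 15 °C. Against N2 at 12 h the log2 difference was 0.60 ± 0.18 (SE, n = 3 per group; 1.52-fold; limma adjusted p = 0.04), and within sets A, B and 1 it was 0.49, 0.64 and 0.68. Relative to the median of all genes the difference was 0.74. With the replicate block the adjusted p was 0.00774, under the pairing limit given above.

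The call for hlh-30 rests on few arrays. Of 19 alternative settings, 8 kept it past the threshold, and the adjusted p ran between 0.00667 and 0.304. Leaving out a single array ended it for daf-2 set B (adjusted p = 0.0858), daf-2 set 1 (0.118), N2 12 h set A (0.131) and N2 12 h set B (0.125), with log2 differences of 0.62, 0.48, 0.56 and 0.56. Median centring gave 0.36 with an adjusted p of 0.304. The call was also lost with quantile normalization (0.0559), no filter (0.0801), the compared groups only (0.0709), and without slide A (0.209), B (0.235) or 1 (0.0653). The second hlh-30 probe, annotated to isoform c, was well above background on 5 of 12 arrays and was not tested, so no difference is given.

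The kinase gene unc-51 was also higher in daf-2. Its signal was 0.26, 0.30 and 0.14 on the daf-2 arrays of sets A, B and 1, against −0.31, −0.19 and −0.33 on the N2 arrays after 12 h. The other N2 arrays read −0.26, −0.40 and −0.28 at 15 °C and −0.33, −0.43 and −0.26 after 3 h. Every daf-2 array was above every N2 array, and the 9 N2 arrays spanned a narrow range. The log2 difference from N2 at 12 h was 0.51 ± 0.12 (SE, n = 3 per group; 1.43-fold; limma adjusted p = 0.015), or 0.65 relative to the median of all genes. The 3 probes of unc-51 gave log2 differences between 0.47 and 0.51, and all 3 had groups apart. Of 19 alternatives 13 kept the call. It was lost without N2 12 h set A (adjusted p = 0.061), without daf-2 set B (0.0571), without slide A (0.239) or B (0.172), with the compared groups only (0.0648) and with median centring (0.491, log2 difference 0.27).

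The gene of the lipid kinase subunit, bec-1, did not differ detectably between daf-2 and N2. It read 0.95, 1.27 and 0.63 in daf-2, against 1.26, 0.93 and 0.61 in N2 after 12 h (sets A, B and 1). The order of the sets was not the same in both groups, and the groups overlapped throughout. The log2 difference was 0.02 ± 0.31 (SE, n = 3 per group; limma adjusted p = 0.971), with a 95% interval from −0.67 to 0.70. In N2 at 15 °C the set B array stood apart at −0.03, beside 1.18 in set A and 0.69 in set 1. The difference of N2 after 3 h from N2 at 15 °C was 0.41 ± 0.31 (SE; limma adjusted p = 0.906), of which set B gave 0.98 and sets A and 1 gave 0.14 and 0.12.

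The gene atg-18, whose product binds the marked membrane, had its lowest mean in daf-2. Its probe annotated to isoform b read 3.54, 2.78 and 2.92 in daf-2, against 3.73, 3.77 and 3.25 in N2 after 12 h. The set A array of daf-2 lay within the N2 range, so the groups overlapped. The log2 difference was −0.50 ± 0.25 (SE, n = 3 per group; limma adjusted p = 0.167), and −0.19, −0.99 and −0.33 within sets A, B and 1. With the replicate block the adjusted p was 0.0359, under the pairing limit given above. The other probes of atg-18, both annotated to isoform a, had differences of −0.13 and −0.27, with 1 N2 spot missing for the first of these.

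The activating enzyme gene atg-7 did not separate daf-2 from N2 after 12 h. It read 2.58, 2.34 and 2.25 in daf-2, against 2.35, 2.42 and 2.33 in N2 after 12 h (sets A, B and 1). The N2 values lie inside the daf-2 range. The log2 difference was 0.02 ± 0.16 (SE, n = 3 per group; limma adjusted p = 0.92), with a 95% interval from −0.32 to 0.37. Among the N2 groups atg-7 was highest after 12 h, as described with the temperature comparisons.

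The Atg8 homolog lgg-1 read 5.49, 5.51 and 4.88 in daf-2, against 4.47, 4.91 and 4.71 in N2 after 12 h. Sets A and B of daf-2 stood above every N2 array, while set 1 of daf-2 fell within the N2 range. The log2 difference was 0.59 ± 0.20 (SE, n = 3 per group; limma adjusted p = 0.0581), which missed the threshold, and within sets A, B and 1 it was 1.02, 0.59 and 0.17. Without the daf-2 array of set 1 it was 0.80 with an adjusted p of 0.014. With the replicate block the adjusted p was 0.0241, under the same pairing limit. The other lgg-1 probe had a difference of 0.43, and its groups were narrowly apart. Its daf-2 array of set 1 read 4.25, and sets A and B of N2 after 12 h read 4.23. N2 after 3 h read higher than that daf-2 array in sets A and B, with 4.30 and 4.27.

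The second Atg8 homolog, lgg-2, read 2.83, 3.05 and 2.89 in daf-2, against 2.57, 2.60 and 2.70 in N2 after 12 h. These groups were apart, although daf-2 overlapped N2 after 3 h, which read 2.95, 2.69 and 3.03. The log2 difference from N2 at 12 h was 0.30 ± 0.16 (SE, n = 3 per group; limma adjusted p = 0.196) and did not pass. Of its 9 probes, 8 had a difference above 0 and 1 below 0, between −0.07 and 0.33, and 3 had groups apart. Both lgg-2 probes annotated to the transcript ZK593.6.2 gave 0.02 and −0.07. Since lgg-1 and lgg-2 belong to a family and probe sequences were not compared here, shared signal between their probes was not tested.

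The cargo receptor gene sqst-1 had the largest difference of the 8 genes. Its signal was 3.1, 3.42 and 3.07 on the daf-2 arrays of sets A, B and 1. In N2 it was 1.39, 1.52 and 1.30 at 15 °C, 1.96, 1.56 and 1.84 after 3 h, and 1.28, 1.32 and 1.51 after 12 h. The daf-2 arrays were far above all 9 N2 arrays, and the spread within each group was small beside that gap. Against N2 at 12 h the log2 difference was 1.82 ± 0.16 (SE, n = 3 per group; 3.54-fold; limma adjusted p = 8.7e-05), and 1.82, 2.10 and 1.55 within sets A, B and 1. It kept the call in all 19 alternatives, with adjusted p-values between 2.1e-05 and 0.0184. The array has only 1 probe of sqst-1, so no other probe could be compared, and the mean of probes uses the same values. Over all genes, 783 had a higher difference.

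The maturation gene epg-5 gave only dim signal. It read −5.0, −5.31 and −4.51 in daf-2, against −6.59, −6.96 and −4.99 in N2 after 12 h (sets A, B and 1). The N2 arrays at 15 °C read −6.66, −6.45 and −4.81, and those after 3 h read −5.54, −5.63 and −4.50. In every group the set 1 array alone was well above background, so epg-5 was not tested and no difference is given.

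**Figure D2:**
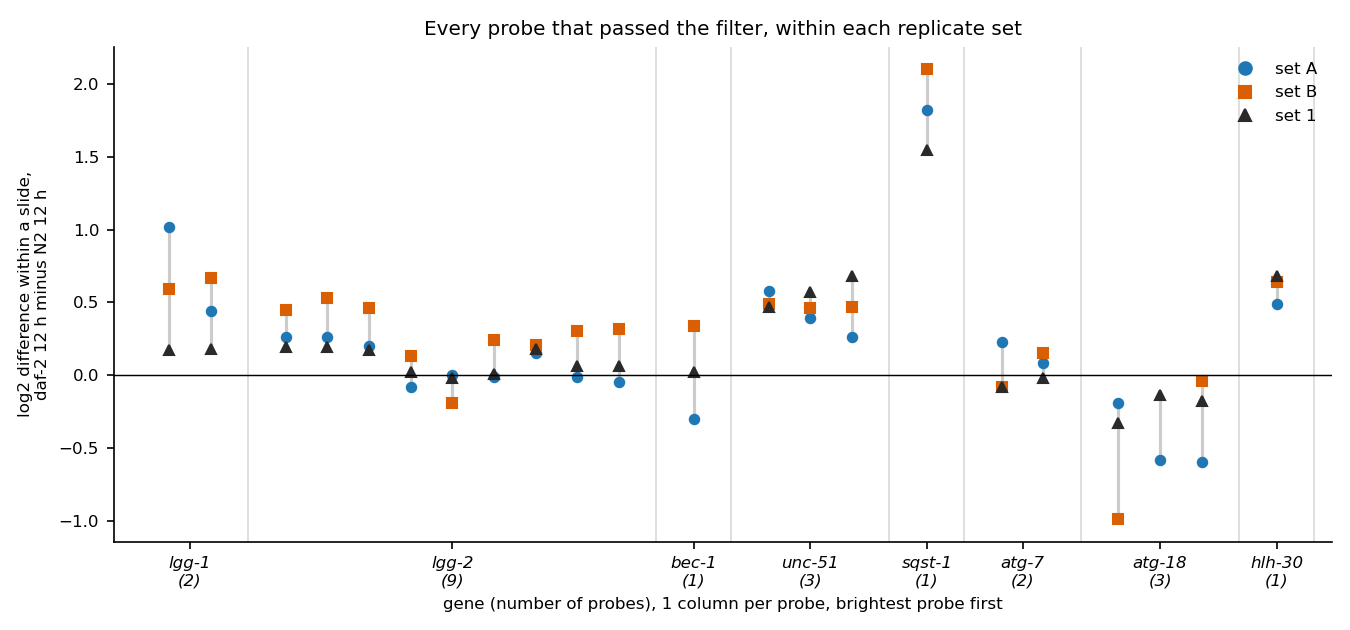
Log2 difference of daf-2 minus N2 after 12 h at 25 °C within each slide (vertical axis) for every probe that passed the filter, grouped by gene and with the replicate sets by symbol. The sqst-1 points lie between 1.55 and 2.10, the 3 unc-51 probes lie above 0 in every set, and the lgg-1 points of set 1 are lower than those of sets A and B.

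Some markers of other tissues were also called between daf-2 and N2 after 12 h, where 14.4% of all genes were higher and 7.45% lower. Of 9 oocyte and germline markers 4 fell and 0 rose, with a mean log2 signal of 4.04 to 4.23 in daf-2 and 4.49 to 4.78 in N2. Of 11 tested sperm markers 2 fell and 0 rose, with a mean of −2.68 to −0.33 in daf-2 and −0.52 to 1.94 in N2, and on all 3 daf-2 arrays 10 of the 11 cleared background. Of 5 intestinal markers 2 rose and 2 fell. Of 7 early embryo markers 1 rose, which is near the share of all genes. Their median log2 difference was 0.40, beside −0.14 over all genes. Their mean log2 signal was −1.29 to −0.70 in daf-2 and −1.59 to −1.04 in N2. Of the 5 neuronal and 4 hypodermal markers 0 passed limma's threshold, with 2 of each at an unadjusted p under 0.05. The mean of the neuronal markers was 1.43 to 1.62 in daf-2 and 1.14 to 1.27 in N2. That of the hypodermal markers was 4.09 to 4.42 in daf-2 and 4.58 to 5.09 in N2. The replicate block called 20.0% of all genes higher and 17.4% lower. It called 2 neuronal and 2 early embryo markers higher and 2 hypodermal markers lower. Of the 4 muscle and 4 yolk markers 0 passed limma's threshold. The part of these markers in the autophagy gene differences was not tested.

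In N2, 0 of the 8 genes passed the test after 3 h at 25 °C against 15 °C, while 1.04% of all genes did (140 genes, but 0 with the compared groups only and 1 without slide A or B). At an unadjusted p under 0.05 there was 1, sqst-1, with a log2 difference of 0.38 ± 0.16 (SE, n = 3 per group; 1.3-fold; limma adjusted p = 0.481). Its 3 arrays after 3 h read above all 3 at 15 °C, and 12.7% of all genes had groups apart in either direction. Of 7 early embryo markers 0 passed here and 3 had an unadjusted p under 0.05, with a mean log2 signal of −2.81 to −2.31 after 3 h and −2.37 to −1.70 at 15 °C. Of 5 neuronal markers 0 passed and 1 had an unadjusted p under 0.05. Their mean was 1.23 to 1.43 after 3 h and 0.99 to 1.13 at 15 °C. Of 11 sperm and 5 intestinal markers 0 passed, with 1 of each at an unadjusted p under 0.05. The part of these lists in the values of sqst-1 was not tested. The 8 genes had a median log2 difference of 0.17, beside 0.02 over all genes. For hlh-30 the difference was −0.26 ± 0.18 (SE; limma adjusted p = 0.876), with groups that overlapped.

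After 12 h at 25 °C against 15 °C, 0 of the 8 genes passed in N2, where 2.67% of all genes did (360 genes, but 0 without slide A or B), and 1 had an unadjusted p under 0.05. That gene was atg-7, which read 2.35, 2.42 and 2.33 after 12 h, against 1.82, 1.70 and 2.04 at 15 °C. All 3 arrays after 12 h were above all 3 at 15 °C, and 20.8% of all genes had groups apart in either direction. The log2 difference was 0.51 ± 0.16 (SE, n = 3 per group; 1.43-fold; limma adjusted p = 0.128), and within sets A, B and 1 it was 0.53, 0.72 and 0.29. With the slide as a random block the adjusted p was 0.0423, and with the fixed replicate block it was 0.0673. These 2 fits called 1119 and 1022 of all 13487 genes. The second atg-7 probe had a difference of 0.29, and its groups overlapped. Of 7 early embryo markers 0 passed, 4 had an unadjusted p under 0.05 and 4 had groups apart, all higher after 12 h, and 2 were called higher with the replicate block. Their mean log2 signal was −1.59 to −1.04 after 12 h and −2.37 to −1.70 at 15 °C. Of 11 sperm markers 1 rose, with a mean of −0.52 to 1.94 after 12 h and −1.70 to 2.42 at 15 °C. Of 5 neuronal markers 0 passed, with a mean of 1.14 to 1.27 after 12 h and 0.99 to 1.13 at 15 °C. The part of these lists in the values of atg-7 was not tested. Here hlh-30 had a difference of −0.07 ± 0.18 and sqst-1 one of −0.03 ± 0.16 (SE).

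Between 12 h and 3 h at 25 °C in N2, 0 of the 8 genes passed and 2.05% of all genes did (276 genes, but 0 without slide A or B). At an unadjusted p under 0.05 there were 2, atg-7 and sqst-1, with log2 differences of 0.42 ± 0.16 and −0.41 ± 0.16 (SE; limma adjusted p = 0.271 and 0.302). The arrays of the 12 h group were all above those of the 3 h group for atg-7 and all below them for sqst-1, while 17.5% of all genes had groups apart. The N2 comparisons share arrays, and the 12 h arrays also serve the daf-2 comparison, so their differences are not independent of one another. Of 7 early embryo markers 4 rose between 3 h and 12 h, with a mean log2 signal of −1.59 to −1.04 after 12 h and −2.81 to −2.31 after 3 h. The part of these markers in the values of atg-7 and sqst-1 was not tested.

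**Figure D3:**
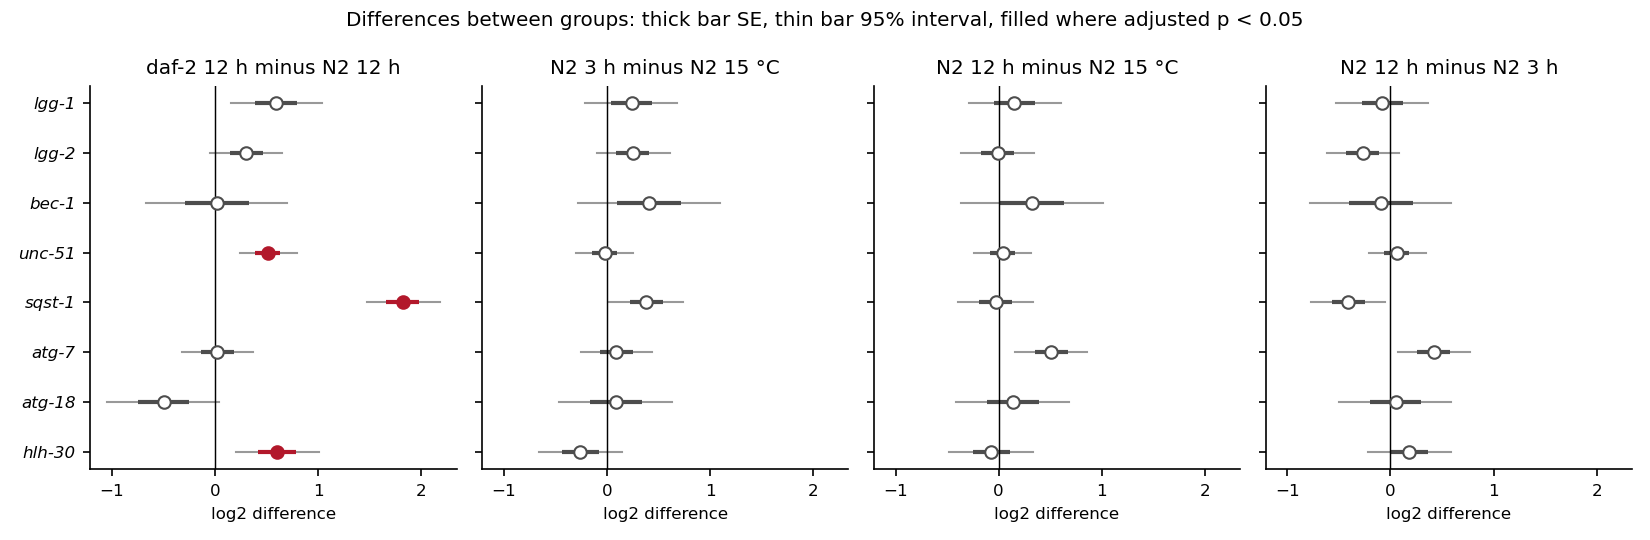
Log2 differences of the 8 tested genes in the 4 comparisons (horizontal axes), with the SE as a thick bar and the 95% interval as a thin bar, filled where limma's adjusted p was under 0.05. Filled points occur for sqst-1, unc-51 and hlh-30 in the daf-2 panel, and no filled point occurs in the 3 N2 panels.

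The order of the group means differed from gene to gene. For lgg-1, lgg-2, unc-51, sqst-1, atg-7 and hlh-30 daf-2 was the highest group, for atg-18 the lowest, and for bec-1 N2 after 3 h was highest. Neighbouring groups in the order were apart in few cases. These were daf-2 above the next group for unc-51, sqst-1 and hlh-30, N2 after 3 h above N2 at 15 °C for sqst-1, and N2 after 12 h above N2 after 3 h for atg-7.

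The other genes of the pathway were read from 7 lists of autophagy genes and regulators, which hold 52 genes besides the 9, of which 51 were tested. Between daf-2 and N2 after 12 h, 6 of the 51 rose and 2 fell, while 43 did not pass. Over all genes 21.9% were called, 14.4% as higher and 7.45% as lower, and each list below has these shares beside it. The median log2 difference of the 51 was −0.18, beside −0.14 over all genes. The count was 4 without the daf-2 array of set B, 4 without that of set 1, 4 without the N2 12 h array of set A and 3 without that of set B. With the replicate block 6 were higher and 6 lower.

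In the initiation kinase complex, epg-7, a scaffold in the clearance of SQST-1 aggregates, rose beside unc-51. Its log2 signal was 1.05 ± 0.04 in daf-2 and 0.42 ± 0.25 in N2 after 12 h (SD, n = 3), a difference of 0.62 ± 0.17 (SE; limma adjusted p = 0.0266). The other 2 of the 4 genes did not pass. Of the phosphatidylinositol 3-kinase complex 0 of 4 genes passed limma's threshold, 0 had an unadjusted p under 0.05, and their differences ran from −0.31 to 0.02.

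Among 5 genes for lipid binding and transfer, atg-2 rose, whose product moves lipid to the growing membrane together with ATG-18. Its log2 signal was −0.71 ± 0.12 in daf-2 and −2.24 ± 0.09 in N2 after 12 h (SD, n = 3), a difference of 1.53 ± 0.14 (SE; 2.89-fold; limma adjusted p = 8.9e-05). Of 11 genes of ubiquitin-like conjugation, which include lgg-1, lgg-2 and atg-7, 0 passed limma's threshold and 2 had an unadjusted p under 0.05. Their median was 0.02 (−0.22 with median centring), the differences lay between −0.56 and 0.59, and lgg-1 passed with the replicate block.

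Of 10 cargo receptors and substrates 3 rose and 2 fell, beside 14.4% of all genes called higher and 7.45% lower. Besides sqst-1, the rises were epg-2, an adaptor for the removal of P granule proteins, with 1.49 ± 0.40 (SE; limma adjusted p = 0.0241), and dct-1, a mitophagy receptor, with 0.66 ± 0.18 (SE; limma adjusted p = 0.0276). The falls were of the P granule proteins themselves, which are germline products: pgl-3 with −0.58 ± 0.14 (SE; limma adjusted p = 0.0184) and pgl-1, named after its value was seen, with −0.89 ± 0.25 (SE; limma adjusted p = 0.0308). The germline markers given above, of which pgl-1 is one, fell in the same comparison.

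Of 10 tested genes of autophagosome maturation and fusion, 0 passed limma's threshold and 1 had an unadjusted p under 0.05. All 10 differences were below 0, between −0.53 and −0.08, while quantile normalization, normexp and the authors' table each left 9 of 10 below 0. Their median was −0.37, beside −0.14 over all genes, so most genes of the array also lay below 0 in this comparison. With the replicate block syx-17 and vamp-7, which encode SNARE proteins of membrane fusion, were called lower (adjusted p = 0.0283 and 0.0254); both were named after their values were seen. Besides epg-5, vps-41 was too dim to test.

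Among 15 transcription and nutrient regulators, 3 rose and 0 fell, beside 14.4% of all genes called higher and 7.45% lower. Beside hlh-30 they were pha-4, a FoxA transcription factor known for its role in autophagy under dietary restriction, and flcn-1, the homolog of folliculin. The log2 signal of pha-4 was 1.54 ± 0.29 in daf-2 and −0.65 ± 0.46 in N2 after 12 h (SD, n = 3), a difference of 2.19 ± 0.26 (SE; 4.56-fold; limma adjusted p = 3.9e-04). That of flcn-1 was 2.23 ± 0.34 in daf-2 and 1.23 ± 0.15 in N2 (SD, n = 3), a difference of 1.00 ± 0.19 (SE; limma adjusted p = 0.00492).

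The lysosome, where autophagy ends and many targets of HLH-30 act, was read from a list of 33 genes. In it vha-6, which fell between daf-2 and N2, and asp-1 are also intestinal markers. Both were named after their values were seen. Between daf-2 and N2 after 12 h, 9 of the 33 rose, 3 fell and 21 did not pass, where 14.4% of all genes were called higher and 7.45% lower. The median log2 difference was 0.11, beside −0.14 over all genes, and it was −0.13 with median centring, beside −0.38 over all genes. The smallest adjusted p was that of lipl-4, a lysosomal lipase, which was higher in daf-2 (limma adjusted p = 8.2e-05). Its log2 signal was −0.91 ± 0.15 in daf-2 and −5.83 ± 0.87 in N2 (SD, n = 3), and since only 1 of 3 N2 arrays was well above background, no size is given for the difference. The glycosidase genes gana-1 and hex-1 rose, with log2 differences of 1.13 ± 0.15 and 1.94 ± 0.30 (SE; limma adjusted p = 6.0e-04 and 0.0015). The gene cln-3.1, a homolog of the human Batten disease gene, fell, with −4.86 ± 0.35 in daf-2 and −2.05 ± 0.15 in N2 (SD, n = 3; limma adjusted p = 3.2e-04), but 2 of 3 daf-2 arrays were well above background and no size is given here either. Leaving out a whole slide gave 5 called genes without set A and 4 without set B.

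In the N2 comparisons 0 of the 51 other autophagy genes and regulators passed at any time. At an unadjusted p under 0.05 there were 0 after 3 h against 15 °C, 5 after 12 h against 15 °C and 2 between 12 h and 3 h. With the replicate block, which called 7.58% of all genes after 12 h against 15 °C, 3 were called higher: epg-2, dct-1 and pha-4, with log2 differences of 0.94, 0.56 and 0.69 and adjusted p-values of 0.0436, 0.0267 and 0.0315. Between 12 h and 3 h it called 5.40% of all genes and 3 of these: epg-2 (1.69), aak-2, a subunit of AMP-activated kinase (0.46), and snap-29, a SNARE gene (−0.51). These genes were named after their values were seen. With the same block, early embryo markers were also called higher, 2 of 7 after 12 h against 15 °C and 5 of 7 between 12 h and 3 h. The part of those markers in the values of these genes was not tested.

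Of the lysosomal genes, spin-3, a member of the spinster transporter family, fell in N2 after 3 h, with −3.80 ± 0.49 after 3 h and −2.33 ± 0.30 at 15 °C (SD, n = 3; limma adjusted p = 0.0254). The call ended, with adjusted p up to 0.105, without the N2 3 h array of set A or of set 1 and without the N2 15 °C array of set A or of set B. The aspartyl protease gene asp-3 fell after 12 h, with 5.84 ± 0.15 after 12 h and 6.64 ± 0.12 at 15 °C (SD, n = 3; limma adjusted p = 0.0243). That call was kept in 1 of the 6 fits that each left out 1 of these arrays, the one without the N2 12 h array of set 1, and the adjusted p ran from 0.0387 to 0.101. In the daf-2 comparison asp-3 was higher by 0.72 ± 0.15 than in N2 after 12 h (SE; limma adjusted p = 0.00806). Its level in daf-2, 6.56 ± 0.04 (SD, n = 3), was near that of N2 at 15 °C (6.64) and after 3 h (6.65).

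For the genes called in daf-2, those with the most similar levels were sought among 7944 genes by Pearson's r over the 12 arrays, as a description. For hlh-30 they were scd-1 (r = 0.964), cutl-10, of the cuticlin-like family (0.961), and lgc-20, a ligand-gated ion channel gene (0.959), and over the 9 N2 arrays alone their r was 0.874, 0.882 and 0.884. For sqst-1 they were the aldehyde dehydrogenase gene alh-2, the gut esterase gene ges-1, which is also 1 of the intestinal markers, and plpp-1.2, with r of 0.97, 0.967 and 0.966 over 12 arrays and 0.481, 0.494 and 0.535 over the N2 arrays. For unc-51 they were the insulin-like peptide gene ins-23 and the catalase genes ctl-1 and ctl-3, with r of 0.969, 0.968 and 0.965 over 12 arrays and 0.374, 0.615 and 0.393 over the N2 arrays. The points share slides and the step between daf-2 and N2, which carries most of the range for sqst-1 and unc-51.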

How the data were processed

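Total RNA was measured on 12 single-colour Agilent arrays, 1 sample each. Per the file headers, spots were read with Agilent Feature Extraction 10.10.1.1; the deposited processed signal is an intensity on a linear scale, background-subtracted by that software and not scaled between arrays. The deposited flags, 0 or 1 under no fixed unit, mark spots well above background, uneven or saturated. The deposited series table equals the processed intensity times 1 constant per array, within 0.0373 on the log2 scale; the authors' choice of constants is not stated in the labels.

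Here, 1417 control spots per array were left out, 28 to 146 uneven spots per array were set to missing, and the other intensity values were put on the log2 scale minus the array's 75th percentile. Probes were named through a reference gene table by sequence name or accession, which matched 34325 of 43603. Kept probes had to clear background on every array of some group, and the brightest kept probe stood for its gene, giving 13487 genes. All 12 arrays entered a single limma fit (limma 3.58.1, R 4.3.3) of 4 group means, and two-sided p-values were adjusted after Benjamini and Hochberg. The method was tested on simulated data in which arrays varied independently, so the test does not cover the slides that the real arrays share. Summaries used pandas 2.3.3 and numpy 2.4.6 under Python 3.11.15, and plots matplotlib 3.10.9.

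The followed genes and all lists were chosen with earlier results of these data known. Named genes were the 9, up to 4 called members per list and comparison by smallest adjusted p, and the 3 genes most similar to hlh-30 and to each called gene; others are marked as named after their values were seen. Each replicate set was 1 slide. As a check of pairing, array deviations from group means were correlated within each set: r was 0.45 to 0.894 between N2 groups, and 0.389, −0.399 and 0.129 (sets A, B and 1) between daf-2 and N2, whose pairing has only the shared slide as its basis. Alternatives were a fixed and a random replicate block, fits of the compared groups only, quantile normalization, median centring, normexp (offset 50, on median spot signals) with quantile normalization, the authors' table, other filters, the mean of probes, and leaving out arrays or sets. Protein, promoter and probe sequences were not analysed here.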

Additional observations from a re-analysis of the deposited data

Results flagged for a closer look

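The effect of 25 °C against 15 °C in N2 differed between 12 h and 3 h for asp-3 and gana-1, by limma's test of 12 h against 3 h itself. For asp-3 the log2 difference was −0.81 ± 0.15 (SE, n = 3 per group; limma adjusted p = 0.0332), with 5.84 ± 0.15 after 12 h and 6.65 ± 0.22 after 3 h (SD), and it was lower in 3 of 3 sets. For gana-1, an alpha-galactosidase homolog, it was 0.77 ± 0.15 (SE, n = 3 per group; limma adjusted p = 0.0348), with −0.65 ± 0.19 after 12 h and −1.42 ± 0.03 after 3 h (SD), and it was higher in 3 of 3 sets. Neither call was kept in any of the 6 fits that left out 1 array of these groups, where the adjusted p ran from 0.057 to 0.118 for asp-3 and from 0.0597 to 0.114 for gana-1. No group had enough arrays for a test of single outlying arrays.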

How the results depend on the processing

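Between daf-2 and N2 after 12 h, 3 of the 8 followed genes were called. The count was 5 with the replicate block, 5 with the random replicate block and 5 with normexp, but 1 with a fit of the compared groups only and 1 with median centring. It ran from 1 to 3 when an array or a slide was left out, and was 1 without the N2 12 h array of set A, without the daf-2 array of set B, and without either slide A or B. Median centring moved the median of all genes in this comparison to −0.38, beside −0.14, and gave −0.22 for bec-1 and −0.22 for atg-7, beside 0.02 for each. The 8 other autophagy genes called became 5 with the compared groups only, 2 with median centring, 5 with no filter, and 2 to 9 with arrays or slides left out. The 12 lysosomal genes became 7 with median centring, and 4 to 14 with arrays or slides left out. The count of all genes called was 2948, beside 5041 with the replicate block, 4973 with the random replicate block, 3044 with normexp and 1631 with median centring. It was 1608 without the N2 12 h array of set A, 1727 without that of set B and 1959 without the daf-2 array of set B. Without slide A it was 848 and without slide B 789.

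In the N2 comparisons the counts of all genes called were 140 after 3 h, 360 after 12 h and 276 between 12 h and 3 h; they became 0, 93 and 10 with the compared groups only, 37, 99 and 59 with median centring, and 1, 0 and 0 without slide A and likewise without slide B. Over all 13487 genes, the replicate block called 327 after 3 h, 1022 after 12 h and 728 between 12 h and 3 h. The random replicate block called 393, 1119 and 834. The replicate block left the count of followed genes at 0. The random replicate block called 1 of them after 12 h against 15 °C. For the other autophagy genes it called 2 there and 2 between 12 h and 3 h, the fixed replicate block called 3 in each, a filter requiring all arrays above background called 1 between 12 h and 3 h, and leaving out arrays gave 0 to 1 there. For lysosomal genes after 3 h the count was 1, but 2 with either block, 0 with the compared groups only, quantile normalization, median centring, normexp or no filter, and 0 to 1 with arrays left out. After 12 h it was 1, but 2 with the replicate block, 3 with the random replicate block, 0 with the compared groups only, median centring, no filter or the mean of probes, and 0 to 1 with arrays left out. Between 12 h and 3 h it was 2, but 5 with either block, 0 with the compared groups only, median centring or no filter, 1 with normexp, the authors' table or the mean of probes, and 0 to 1 with arrays left out. The alternatives for the list counts, other than the replicate block for autophagy genes, were chosen after seeing the data.

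Among the followed genes, changes of sign occurred only in differences that had not been called. After 3 h against 15 °C the mean of probes gave 0.01 for unc-51 and −0.07 for atg-18, and leaving out arrays gave −0.07 to 0.02 and −0.04 to 0.24. After 12 h against 15 °C lgg-2 was 0.02 with quantile normalization, 0.02 in the authors' table and 0.07 with the mean of probes, sqst-1 was 0.02 with quantile normalization and 0.00 in the authors' table, and unc-51 was −0.05 with median centring. Leaving out arrays there gave −0.15 to 0.08 for lgg-2, −0.00 to 0.60 for bec-1, −0.05 to 0.08 for unc-51, −0.15 to 0.05 for sqst-1, −0.03 to 0.30 for atg-18 and −0.17 to 0.00 for hlh-30. Between 12 h and 3 h it gave −0.20 to 0.07 for lgg-1, −0.25 to 0.07 for bec-1, −0.03 to 0.13 for unc-51 and −0.10 to 0.22 for atg-18. Between daf-2 and N2 it gave −0.14 to 0.18 for bec-1 and −0.08 to 0.09 for atg-7. The causes were not tested. A fit without 1 array assumes that the others of its group vary alike. Signal near background limits epg-5 and the isoform c probe of hlh-30.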
